A study of Homo sapiens with 48 samples.

Results

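The Kruppel-like factors are a family of zinc-finger transcription factors, and the 10 members described here, KLF2, KLF4, KLF5, KLF6, KLF7, KLF9, KLF10, KLF11, KLF13 and KLF15, were chosen by name, through the gene symbol that the array's annotation gives each probe. Of the 10 genes, 9 had a probe, and KLF11 was not analysed here. The 9 genes had 12 probes of the 47323 on the array, 3 of them for KLF10 and 2 for KLF4. After a filter on dim probes, 10 of the 12 remained, and each of the 9 genes was represented by its brightest remaining probe among 11886 genes tested.

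The family shares a C-terminal set of zinc fingers that binds GC-rich and CACCC sequences in promoters, while the rest of each protein recruits coactivators or corepressors. KLF9 and KLF15 are long known as genes that glucocorticoids switch on directly, through binding of the glucocorticoid receptor near them. KLF10 and KLF11 were named as early response genes of TGF-beta, and KLF2, KLF4, KLF5 and KLF6 respond to mitogens, flow or injury in many cell types.

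The cells were U2OS, a human osteosarcoma line, in a single clone that stably expresses wild-type rat GRα, the glucocorticoid receptor. They were left without siRNA (NI, the non-infected control), transfected with a nonspecific siRNA (siNS), or transfected with 1 siRNA (siHic5_2) against Hic-5, a focal adhesion protein and receptor coregulator encoded by TGFB1I1. The siRNA dose was 60 pmol per well, and dexamethasone, a synthetic glucocorticoid, was given for 0, 2, 4 or 24 h. All wells were harvested together, so the hormone was added 2 days after transfection for the 24 h groups and 3 days after it for the 2 and 4 h groups. This gave 12 groups of 4 arrays. The clone, the rat receptor and the serum-containing medium were common to all groups, and the labels do not say whether replicates were separate cultures, so the p-values measure the spread between these arrays only.

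The 48 bead arrays lay on 6 slides. Median raw intensity ran from 134 to 193 per array, against 114 to 161 for the negative-control beads, and 31.7 to 38.3% of probes were above background. Levels below are normalised log2 intensities, and a probe counts as above background when fewer than 1% of the negative controls were as bright, a detection p under 0.01. TGFB1I1 averaged 9.74 ± 0.18 with siNS and 6.33 ± 0.36 with siHic5_2 at 0 h (SD, n = 4), and it was above background on 2, 1, 0 and 0 of the 4 siHic5_2 arrays at 0, 2, 4 and 24 h. On the third siHic5_2 array at 24 h, KLF2, KLF6, KLF7, KLF9, KLF10, KLF13 and KLF15 each read the highest value of their group. The called member differences and the differences of responses quoted below that use this group are therefore given with and without that array, or pair by pair. Differences of responses that did not pass are not all quoted. Over all genes that array ranked 27 of 48 in distance from its own group. RNA was measured per array, and fewer expressing cells cannot be told apart from less RNA per cell. Of 10 osteoblast-lineage markers, RUNX2, ALPL, COL1A1 and SPARC were above background on all 48 arrays, SPP1 on 39 and BMP4 on 22. TWIST1 was on 0, COL1A2 and IBSP on 1 and BGLAP on 2. Of the epithelial markers listed, EPCAM, KRT8 and KRT18 were also above background on all 48, ELF3 on 28, and KRT19, CDH1 and ESRP1 on 0.

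The promoters of KLF9 and KLF15 are shown because these were the only members that dexamethasone raised in all 3 transfection states at 24 h. Each window is the RefSeq sequence (GRCh38.p14) from 250 bases before to 50 after the annotated gene start, read 5′ to 3′ on the minus strand, at chr9:70414608-70414907 for KLF9 and chr3:126357359-126357658 for KLF15. Capitals mark GC boxes, searched as GGGCGG or CCGCCC.
KLF9: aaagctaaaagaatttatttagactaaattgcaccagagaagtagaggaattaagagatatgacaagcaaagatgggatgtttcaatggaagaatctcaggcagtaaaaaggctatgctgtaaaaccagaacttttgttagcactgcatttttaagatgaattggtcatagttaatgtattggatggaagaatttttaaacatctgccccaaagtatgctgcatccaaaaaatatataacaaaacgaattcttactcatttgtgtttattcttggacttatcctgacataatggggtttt
KLF15: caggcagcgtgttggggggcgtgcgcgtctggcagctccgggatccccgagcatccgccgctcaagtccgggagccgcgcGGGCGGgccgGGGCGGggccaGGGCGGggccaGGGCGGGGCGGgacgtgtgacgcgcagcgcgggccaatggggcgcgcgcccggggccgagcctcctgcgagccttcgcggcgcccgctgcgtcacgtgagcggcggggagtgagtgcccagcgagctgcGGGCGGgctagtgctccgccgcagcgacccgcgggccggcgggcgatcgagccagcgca
KLF15's window was 80.3% G and C and held 6 GC boxes, one pair of them overlapping, whereas KLF9's was 32.7% G and C and held none. RefSeq gave 14 windows for 9 of the 10 named members, with none for KLF10 and 2 for KLF11, which had no probe. A GC box was in 9 of the 14, among them both windows of KLF11, compared with 45.0% of 35116 promoter windows. The full palindromic glucocorticoid response element was in 0 of the 14 windows and in 0.00285% of all windows. Its single hexamer, AGAACA or TGTTCT, was in 2 of the 14, 1 window each of KLF5 and KLF7, and in 14.8% of all windows. The CACCC box, searched as CCACCC or GGGTGG, was in 2 of the 14, 1 each of KLF7 and KLF13, and in 34.3% of all windows, and TATAAA or its complement TTTATA in 1 and in 11.5%. A letter match in so short a window is a description of the window and says nothing on where the receptor binds.

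With siNS, 2 of 9 members passed the test at 2 h, KLF15 higher and KLF10 lower, where 4.83% of all genes did (limma, Benjamini-Hochberg adjusted p under 0.05 over 11886 genes, here as for every call). At 4 h the same 2 genes passed, against 8.19% of all genes. At 24 h 5 of 9 passed, KLF9 and KLF15 higher and KLF2, KLF10 and KLF13 lower, against 39.6% of all genes. NI cells gave 2, 3 and 4 members at the 3 times, with backgrounds of 2.97, 8.82 and 39.3%, and siHic5_2 cells gave 2, 5 and 3, with backgrounds of 2.89, 11.1 and 34.8%. The 24 h shares lay near the background of those contrasts. The 3 responses of one transfection state share the same 0 h arrays.

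**Figure D1:**
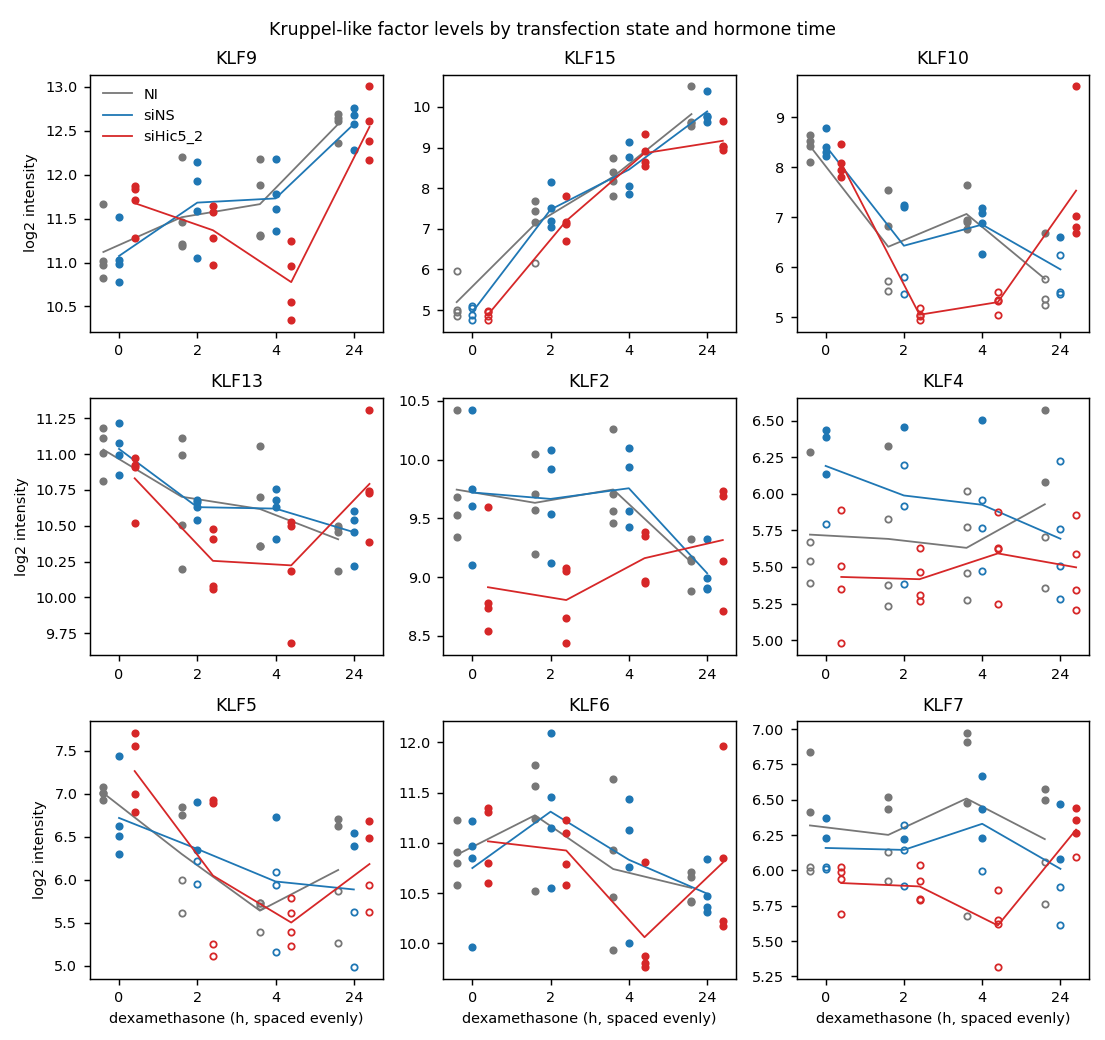
Normalised log2 intensity (vertical axes, which differ between panels) of the 9 measured members against hours of dexamethasone (horizontal axis, evenly spaced), in NI (grey), siNS (blue) and siHic5_2 (red) cells. Points are arrays, open where below background, and lines join group means of 4 arrays. KLF15 group means climbed from at most 5.20 at 0 h to at least 9.17 at 24 h in all 3 states, and KLF10 with siHic5_2 lay below background on all 2 and 4 h arrays.

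**Figure D2:**
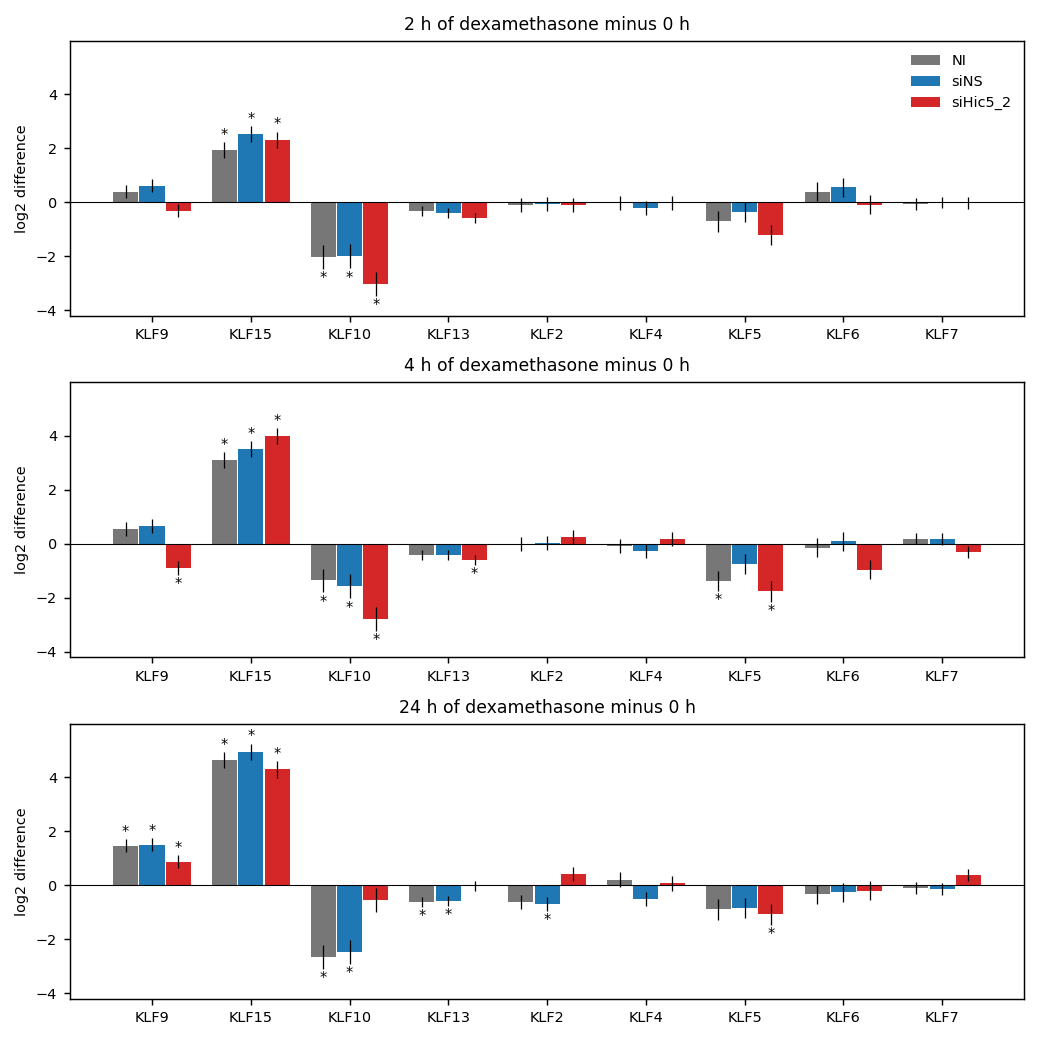
Log2 difference of each hormone time from 0 h (bars) with its standard error (lines) for each member in NI, siNS and siHic5_2 cells, 4 arrays a group. A star marks an adjusted p under 0.05. KLF15 was starred in all 9 contrasts and KLF10 in all but siHic5_2 at 24 h.

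KLF9, also known as BTEB, was above background on all 48 arrays. In siNS cells its 4 arrays read 11.02, 10.98, 10.78 and 11.51 at 0 h. They read 11.77, 11.61, 11.36 and 12.17 at 4 h, and 12.28, 12.76, 12.57 and 12.68 at 24 h. Every 24 h array was above every 0 h array. The 24 h rise was 1.499 on the log2 scale (SE 0.25, 2.83-fold, adjusted p = 3.38e-06), and in NI cells it was 1.45 (SE 0.25, adjusted p = 5.86e-06). On slides that held both groups, the siNS rise ran from 1.501 to 1.78 over 3 slides.

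At 2 and 4 h the rise of KLF9 in control cells was smaller. The siNS differences of 0.61 and 0.65 (SE 0.25) did not pass in the fit without a block. Replicate numbers paired arrays across times within a transfection state, and with that pairing as a block both passed, with adjusted p = 0.028 and 0.0121. Array by array, the 4 h change was 0.65 ± 0.07 with siNS (SD, n = 4) and 0.54 ± 0.26 in NI cells (adjusted p = 0.0407 with the block), higher in 4 of 4 pairs in each.

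With siHic5_2 the early course of KLF9 ran the other way. Its arrays read 11.87, 11.71, 11.28 and 11.84 at 0 h and 11.25, 10.35, 10.55 and 10.96 at 4 h, with no overlap. At 24 h they read 12.61, 12.17, 13.004 and 12.39, above every 0 h array and close to the control cells. KLF9 fell by 0.90 on the log2 scale at 4 h (SE 0.25, 0.537-fold, adjusted p = 0.0106), then stood 0.87 above 0 h at 24 h (adjusted p = 0.00484). The paired 4 h change was -0.90 ± 0.32, lower in 4 of 4 pairs. Without the second array of the 4 h group the fall was -0.75 with adjusted p = 0.0521, and without replicate number 3 in all groups the 24 h rise was 0.58 with adjusted p = 0.11. Without the third 24 h array alone the 24 h rise was 0.71 (adjusted p = 0.0327). From 4 to 24 h KLF9 rose by 1.36, 1.82, 2.46 and 1.42 in pairs 1 to 4, of which pair 3 holds that array.

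The 4 h response of KLF9 differed between siHic5_2 and siNS by -1.55 (SE 0.35, adjusted p = 0.022), and between siHic5_2 and NI by -1.44 (adjusted p = 0.0314). KLF9 was the only member of the 9 that passed in the first of these contrasts, where 0.454% of all genes did, and in the second it was also the only one, with 0.648% of all genes. At 2 and 24 h 0 of 9 responses differed between siHic5_2 and siNS, against 0.135 and 3.52% of all genes. With the pairing as a block within each state the adjusted p values were 7.94e-04 and 0.00143. The call depended on single arrays: leaving out any of 6 single arrays, or any 1 replicate number, gave adjusted p from 0.0502 to 0.229 for the contrast with siNS, while the difference stayed between -1.63 and -1.40 in those fits. The arrays were the siNS 0 h replicates 2 and 3, the siNS 4 h replicates 1 and 4, the siHic5_2 0 h replicate 1 and the siHic5_2 4 h replicate 3. With the slides as a block the difference from NI was -1.30 (adjusted p = 0.183), and from siNS -1.65 (adjusted p = 0.0263). The contrast with NI was lost too without the NI 0 h replicates 1, 2 or 3, the NI 4 h replicates 1 or 4, the siHic5_2 0 h replicates 1 or 4, or the siHic5_2 4 h replicates 2 or 3, at -1.41 to -1.27.

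Directly compared at each time, KLF9 with siHic5_2 minus siNS was 0.60 at 0 h (SE 0.25, adjusted p = 0.0667), -0.31 at 2 h, -0.95 at 4 h (adjusted p = 0.00287) and -0.03 at 24 h. At 4 h the highest siHic5_2 array, 11.25, lay below the lowest siNS array, 11.36. This 4 h difference kept its side of the threshold in every alternative and with each array left out, and it ran from -1.63 to -0.39 on the 2 slides that held both groups. Ordered by group mean, KLF9 went from 10.78 in siHic5_2 at 4 h to 12.57 in NI at 24 h, and each group's range overlapped that of its neighbour in this order.

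KLF15, which drives amino acid breakdown and glucose metabolism genes in muscle and liver, had the largest rise of the family at each time in each state. It was below background on all 12 of the 0 h arrays, where siNS arrays read 5.05, 4.88, 5.11 and 4.76. With dexamethasone the siNS arrays read 8.16, 7.51, 7.04 and 7.18 at 2 h, 9.14, 8.77, 7.85 and 8.06 at 4 h, and 10.39, 9.76, 9.64 and 9.77 at 24 h. All 12 hormone-treated siNS arrays were above background. Since 0 h gave only a bound, the siNS increase was at least 2.56-fold at 2 h, 5.06-fold at 4 h and 13.7-fold at 24 h (adjusted p = 6.25e-08, 4.45e-12 and 2.71e-17). A bound sets the treated mean against the dimmest signal that is above background on each 0 h array.

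The NI arrays of KLF15 read 7.18, 7.45, 6.16 and 7.68 at 2 h, 8.74, 8.17, 7.82 and 8.40 at 4 h, and 10.51, 9.53, 9.61 and 9.64 at 24 h. Bounds there were 1.77-fold, 3.98-fold and 11.6-fold. With siHic5_2 KLF15 read 7.12, 7.16, 6.69 and 7.80 at 2 h, 8.64, 8.54, 8.92 and 9.35 at 4 h, and 9.03, 8.93, 9.66 and 9.05 at 24 h, with bounds of 1.997-fold, 6.34-fold and 7.83-fold, the last 6.99-fold without the third 24 h array. Thus all 9 hormone contrasts of KLF15 passed, and they did so in every alternative and with every array left out. Only the step from NI at 0 h to NI at 2 h was free of overlap in the order of its 12 group means.

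Between 4 and 24 h the states were less alike for KLF15. It rose further by 1.43 with siNS (SE 0.30, adjusted p = 0.000195) and by 1.54 in NI cells (adjusted p = 8e-05), in 4 of 4 pairs each, and the siHic5_2 change was 0.31 (SE 0.30), higher in 3 of 4 pairs. The difference between these changes, a contrast added after the values were seen, was -1.13 against siNS (SE 0.42, adjusted p = 0.142) and -1.24 against NI (adjusted p = 0.0902). Without the third siHic5_2 array at 24 h the siHic5_2 change was 0.14, and the differences were -1.29 and -1.40 (adjusted p = 0.0942 and 0.0629). With the pairing as a block the adjusted p values were 0.0183 and 0.00875. At 24 h KLF15 with siHic5_2 minus siNS was -0.72 (SE 0.30, adjusted p = 0.0639), and 3 of 4 siHic5_2 arrays lay below the lowest siNS array. The remaining one was replicate 3, and without it the difference was -0.89 (adjusted p = 0.0351).

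Other known receptor targets gave a background for these courses. All 17 genes of a list of glucocorticoid receptor targets, chosen with earlier results of these data known, were measured. With siNS 13, 12 and 14 of them rose and 1, 1 and 2 fell at 2, 4 and 24 h, with median changes of 0.99, 1.25 and 1.98, against medians of 0.01, -0.01 and -0.01 over all genes, of which 4.83, 8.19 and 39.6% were called. At 4 h with siHic5_2 7 rose and 2 fell, with a median of 0.25, where 11.1% of all genes were called. The 4 h response was lower with siHic5_2 than with siNS for 5 of the 17 and higher for none, with a median difference of -0.82, against 0.02 over all genes, of which 0.454% were called. TSC22D3, which encodes the anti-inflammatory protein GILZ, differed by -1.91 (SE 0.21, adjusted p = 2.28e-07). DUSP1, a phosphatase of MAP kinases, differed by -1.71 (adjusted p = 0.00041). FKBP5, a chaperone that restrains the receptor, differed by -1.21 and NFKBIA, the inhibitor of NF-kappa-B, by -0.73 (adjusted p = 0.00381 and 0.00819). PDK4, named after its value was seen, was the fifth at -2.01. DUSP1 was like KLF9 in rising with siNS at 4 h, by 0.71, and falling with siHic5_2, by 1.002 (adjusted p = 0.0146 and 0.000273). KLF15's 4 h response differed by 0.47 (SE 0.42, adjusted p = 0.911).

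**Figure D3:**
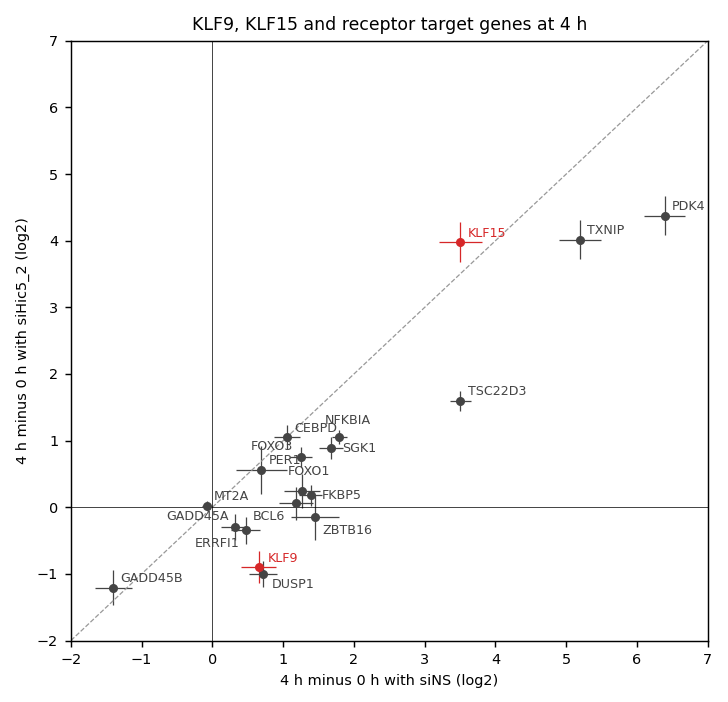
Log2 difference of 4 h from 0 h of dexamethasone with siNS (horizontal axis) and with siHic5_2 (vertical axis), for 17 receptor target genes (grey) and for KLF9 and KLF15 (red). Crossed lines are standard errors and the dashed line marks equal responses. KLF9 and DUSP1 lie right of 0 and below it, and KLF15 lies next to the dashed line.

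KLF10, named for its early induction by TGF-beta, fell with dexamethasone. In siNS cells its brightest probe read 8.30, 8.24, 8.41 and 8.79 at 0 h. It read 7.21, 5.48, 5.80 and 7.25 at 2 h, 6.88, 6.26, 7.09 and 7.19 at 4 h, and 5.47, 6.26, 6.61 and 5.50 at 24 h. No treated siNS array reached the lowest 0 h array, and KLF10 was above background on 2, 4 and 1 of the 4 siNS arrays at 2, 4 and 24 h, and on as many NI arrays. The differences at 2 and 24 h are therefore of measured values that are partly at background. At 2 h the measured mean fell to 0.25-fold (adjusted p = 0.0025), and the log2 differences at 4 and 24 h were -1.58 and -2.47 (SE 0.44, adjusted p = 0.015 and 1.38e-05). In NI cells the 3 differences were -2.01, -1.36 and -2.66 (adjusted p = 0.00288, 0.0431 and 4.28e-06). With the slides as a block the siNS falls at 2 and 4 h were -1.56 and -1.31, with adjusted p = 0.088 and 0.0565. The 4 h call in siNS cells was also lost without the siNS 0 h replicate 4 or the siNS 4 h replicate 2, at -1.46 and -1.38 (adjusted p = 0.0565 and 0.0762), and in NI cells with median scaling, with no filter on dim probes, in the fit of all kept probes (adjusted p = 0.0776, 0.0693 and 0.0532), and without any 1 of the 8 arrays other than the NI 4 h replicate 1, at -1.47 to -1.26.

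In siHic5_2 cells KLF10 fell at 2 and 4 h and was higher again at 24 h than at 4 h. The arrays read 7.80, 7.95, 8.08 and 8.47 at 0 h, 5.02, 4.95, 5.19 and 5.04 at 2 h, and 5.35, 5.32, 5.05 and 5.50 at 4 h. All 8 arrays at 2 and 4 h were below background, and the fall was at least 3.801-fold and 3.54-fold (adjusted p = 4.93e-06 and 8.71e-06). At 24 h the arrays read 7.02, 6.81, 9.62 and 6.68, all above background and all above every 4 h array. From 4 to 24 h KLF10 rose at least 2.43-fold (adjusted p = 9.3e-05), in 4 of 4 pairs. Without the third 24 h array, which read 9.62, the bound was 1.501-fold (measured difference 1.53, adjusted p = 0.00169). The difference of 24 h from 0 h was -0.54 (SE 0.44, adjusted p = 0.376), and without that array it was a fall of -1.24 that passed (adjusted p = 0.0105). In both control states KLF10 was lower at 24 h than at 4 h in 4 of 4 pairs, with mean changes of -0.90 with siNS (adjusted p = 0.117) and -1.30 in NI cells (adjusted p = 0.0208). From 4 to 24 h 4 of 9 members passed with siHic5_2 and 3 in each control state, against 34.7% of all genes with siHic5_2, 33.4% with siNS and 32.3% in NI cells. The 4 were KLF7, KLF9, KLF10 and KLF13, and the call of KLF13, 0.57, was lost without the third 24 h array (0.40, adjusted p = 0.106).

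The difference between these late changes of KLF10 was 3.13 against siNS (SE 0.62, adjusted p = 0.0016) and 3.53 against NI (adjusted p = 0.000394), in contrasts added after the values were seen, where 3.64 and 4.31% of all genes passed. These are differences of measured values, of which the siHic5_2 4 h group was below background on all 4 arrays and each control group at 24 h on 3 of 4. It passed in every alternative fit of the brightest probe and with every array left out. Without the third siHic5_2 array at 24 h, which read 9.62, it was 2.43 (adjusted p = 0.00377) and 2.83 (adjusted p = 7.3e-04). The response at 24 h as a whole differed by 1.93 against siNS (SE 0.62, adjusted p = 0.0743) and by 2.11 against NI (adjusted p = 0.0421), and without that array these were 1.24 and 1.42 (adjusted p = 0.225 and 0.136). The contrast with NI, where 4.05% of all genes passed, was also lost without the NI 0 h or NI 24 h replicates 1, 3 or 4 or the siHic5_2 0 h replicates 1, 2 or 3, at 1.94 to 2.11.

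KLF10 with siHic5_2 minus siNS was -0.36 at 0 h (SE 0.44, adjusted p = 0.612), lower at 2 and 4 h, and higher at 24 h. At 2 and 4 h the knockdown arrays were below background, so KLF10 was at least 1.22-fold and 1.52-fold lower (adjusted p = 0.0167 and 0.00643). Of these 2 calls the first was lost without the siNS 2 h replicate 1 or 4 (measured difference -1.12 and -1.11, adjusted p = 0.0817 and 0.086). At 24 h the measured difference was 1.58 (SE 0.44, adjusted p = 0.00544), with 1 of 4 siNS arrays above background. It was 0.88 without the third siHic5_2 array, and the call was lost there and in a fit of only these groups (adjusted p = 0.0837 and 0.0834). On slides that held both groups the 24 h difference ran from 0.76 to 3.01, with the same sign on 3 of 3 slides.

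The second kept KLF10 probe was dimmer. With siHic5_2 its means also fell at 2 and 4 h and were higher again at 24 h. In siNS cells it averaged 7.83 ± 0.79 at 0 h and 5.43 ± 0.33 at 24 h (SD, n = 4). With siHic5_2 it averaged 6.27 ± 0.74, 4.88 ± 0.10, 4.78 ± 0.09 and 6.08 ± 1.24 at 0, 2, 4 and 24 h, above background on 2, 0, 0 and 1 arrays. Unlike the brightest probe it was lower with siHic5_2 already at 0 h, by -1.56 (SE 0.55, adjusted p = 0.0375 in a fit of all kept probes). Its late change differed by 1.95 between siHic5_2 and siNS (SE 0.78, adjusted p = 0.21), and its knockdown difference at 24 h was 0.65 (adjusted p = 0.449). At 0, 2, 4 and 24 h the knockdown difference had the same direction on both probes, but at 0 and 24 h not the same size. On the second it was -0.85 at 2 h and -1.30 at 4 h (adjusted p = 0.305 and 0.0765). The siHic5_2 changes of that probe, -1.40 at 2 h, -1.49 at 4 h and 1.30 from 4 to 24 h, did not pass (adjusted p = 0.307, 0.0813 and 0.0704). The difference of responses from siNS had opposite signs on the 2 probes. It was 0.71 on the second and -1.02 on the brightest at 2 h, 0.26 and -1.195 at 4 h, and did not pass.

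**Figure D4:**
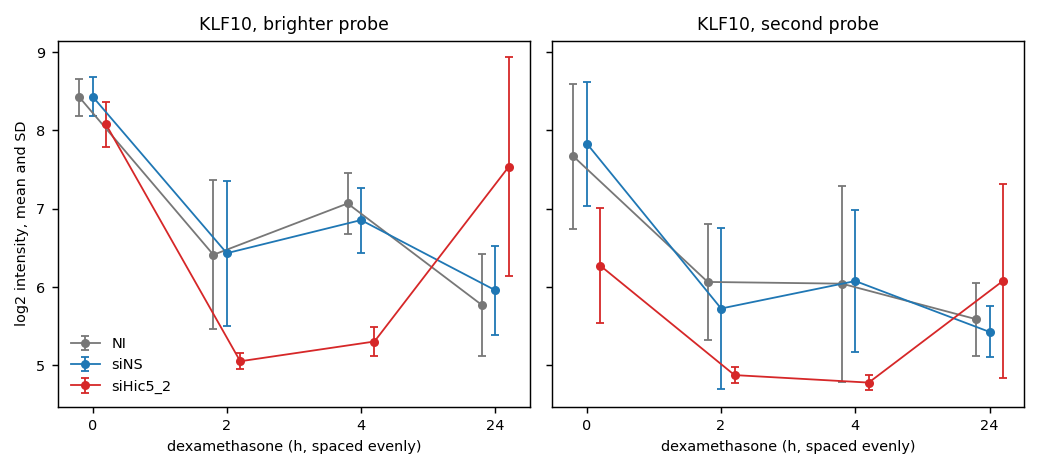
Mean normalised log2 intensity of 4 arrays (points) with its SD (lines) for the 2 kept probes of KLF10 against hours of dexamethasone, evenly spaced, in NI, siNS and siHic5_2 cells. On both probes the siHic5_2 line is lowest at 2 and 4 h and highest at 24 h.

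Of 14 genes listed as TGF-beta early response companions of KLF10, 11 were measured. In siNS cells 1 rose and 5 fell at 4 h, with a median of -0.53, where 8.19% of all genes were called. PMEPA1, a TGF-beta target that dampens the pathway, was the most strongly lowered at 24 h, by 2.58 on the log2 scale (adjusted p = 4.12e-10). With siHic5_2 against siNS 5 were higher and 1 lower at 24 h, where 29.7% of all genes were called, among them the corepressor SKI at 0.99 and BAMBI, a decoy receptor, at 0.82 (adjusted p = 0.00046 and 0.00623). Their responses to the hormone differed between the 2 states for 0 of 11 at each time.

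KLF13, which binds GC-rich promoters and is known in lymphocytes for activating CCL5, followed KLF10 across the groups. Pearson's r between them was 0.966 over the 12 group means, the highest of the 36 pairs of members; it is a description, since the means come from the same arrays. KLF13 was bright on all 48 arrays and moved far less. In siNS cells it read 10.86 to 11.22 at 0 h and 10.22 to 10.60 at 24 h, a fall of 0.58 on the log2 scale (SE 0.18, adjusted p = 0.00972), and in NI cells it fell by 0.63 (adjusted p = 0.00562). The ranges did not overlap in either state. Without replicate number 2 or 4 in all groups the siNS adjusted p was 0.0501 or 0.0941, and without number 4 that of NI cells was 0.0948. With siHic5_2 it read 10.52 to 10.97 at 0 h, 9.68 to 10.53 at 4 h and 10.39 to 11.31 at 24 h. The 4 h fall of 0.61 passed (adjusted p = 0.0225), although the ranges overlapped, and without the second array of the 4 h group it was -0.43 with adjusted p = 0.141. That call was also lost without the siHic5_2 0 h replicates 2, 3 or 4 or the 4 h replicate 4, at -0.60 to -0.56. With the slides as a block it was -0.37 (adjusted p = 0.218). At 24 h the siHic5_2 difference from 0 h was -0.04.

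KLF2 keeps endothelial cells and lymphocytes quiescent, and in these cells it was lower with siHic5_2 before any hormone. It read 9.75, 9.10, 10.42 and 9.61 with siNS at 0 h and 9.60, 8.74, 8.54 and 8.78 with siHic5_2. One siHic5_2 array, replicate 1, reached into the siNS range. The difference was -0.81 at 0 h (SE 0.26, adjusted p = 0.0192) and -0.86 at 2 h (adjusted p = 0.0121), where the groups did not overlap. At 4 h it was -0.59 (adjusted p = 0.0802) and at 24 h 0.28. Of the 9 members, 2 passed at 0 h and 2 at 2 h, against 25.9 and 25.8% of all genes.

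**Figure D5:**
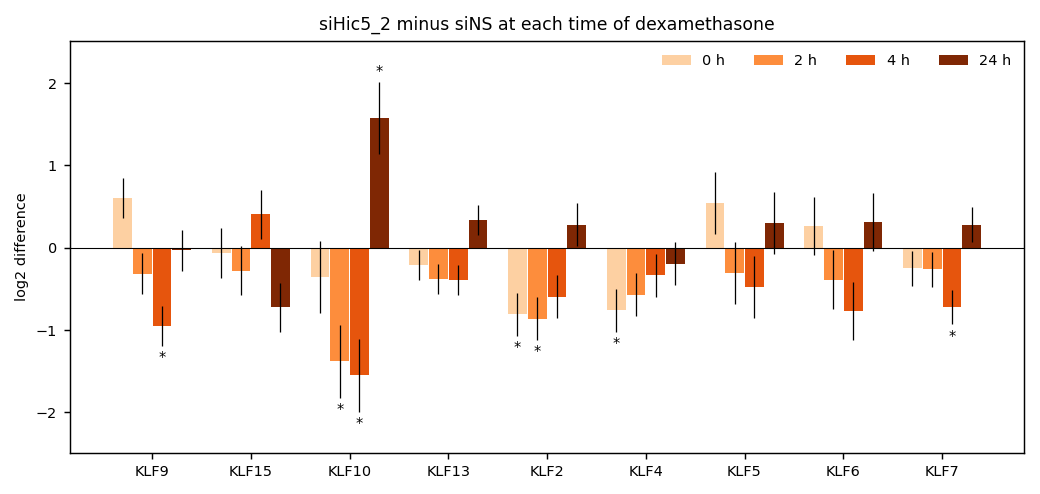
Log2 difference of siHic5_2 from siNS (bars) with its standard error (lines) at 0, 2, 4 and 24 h of dexamethasone for each member, 4 arrays a group. A star marks an adjusted p under 0.05. KLF10 is lower at 2 and 4 h and higher at 24 h, and KLF9 is lower at 4 h.

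Single arrays decided the KLF2 calls. Without the siNS 0 h replicate 3, which read 10.42, the 0 h difference was -0.57 (adjusted p = 0.122), and it also missed the threshold without the siHic5_2 0 h replicate 3 or 4, at -0.68 and -0.76. At 2 h the call was lost without the siNS replicate 3 or the siHic5_2 replicate 4, at -0.72 and -0.74 (adjusted p = 0.055 and 0.0584). In siNS cells KLF2 fell by 0.69 from 0 to 24 h (SE 0.26, adjusted p = 0.033). Without the siNS 0 h replicate 3 that was -0.45 with adjusted p = 0.196, and the call was lost too without the siNS 0 h replicate 1 or the 24 h replicates 1, 2 or 4, at -0.68 to -0.64. The NI change was -0.62 (adjusted p = 0.0563, and 0.00673 with the pairing as a block). With siHic5_2 KLF2 changed by 0.40 (SE 0.26). The 24 h response differed by 1.09 from siNS (SE 0.37, adjusted p = 0.0966, and 0.00697 with the pairing as a block) and by 1.02 from NI (adjusted p = 0.0109 with the block). Without the third siHic5_2 array at 24 h these were 0.95 and 0.88 (adjusted p = 0.197 and 0.239, no block).

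KLF4, a factor of epithelial differentiation and of reprogramming to pluripotency, was close to background. Its brighter probe was above background on 9 of 48 arrays, of which 5 were siNS, 4 were NI and none was siHic5_2. At 0 h it read 6.14, 6.39, 6.44 and 5.80 with siNS and 4.98, 5.89, 5.35 and 5.51 with siHic5_2. The measured difference of -0.76 passed (SE 0.26, adjusted p = 0.0285), but no fold is given because a bound would lie below 1. Against NI the difference was -0.29 with adjusted p = 0.455. The call was lost without the siNS 0 h replicate 2 or 3 or the siHic5_2 0 h replicate 1 or 3, at -0.73 to -0.61. Of 7 listed genes of the MEK5-ERK5-MEF2 route that induces KLF2 and KLF4, 5 were measured. MAP3K3, its upstream kinase, was the 1 gene of these 5 called at 0 h, where 25.9% of all genes were called. It was higher with siHic5_2 than with siNS by 0.92 (SE 0.26, adjusted p = 0.00707).

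KLF5 promotes proliferation in epithelial and smooth muscle cells. It was above background on 25 of 48 arrays, among them all 12 at 0 h, where siNS arrays read 6.63, 7.43, 6.30 and 6.50 and NI arrays 7.08, 6.93, 7.01 and 7.01. At 4 h it was below background on every NI and siHic5_2 array, at least 1.76-fold lower in NI cells (adjusted p = 0.013) and at least 2.01-fold lower with siHic5_2 (adjusted p = 8.14e-04). The siNS arrays at 4 h read 6.09, 5.16, 5.93 and 6.72, overlapping those at 0 h, with a difference of -0.74 (SE 0.38). At 24 h the measured mean of KLF5 was lower by 1.08 with siHic5_2 (adjusted p = 0.0221), where 2 of 4 arrays were above background. This call was lost without the siHic5_2 0 h replicate 1 or 4 or the 24 h replicate 2 or 3, at -0.998 to -0.895. No knockdown difference of KLF5 passed at any time.

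KLF6, a factor induced by tissue injury, was bright on all 48 arrays and passed in 0 of the 9 hormone contrasts and 0 of the 4 knockdown contrasts without a block. With siHic5_2 it read 11.31, 10.60, 10.80 and 11.35 at 0 h and 9.77, 9.80, 9.87 and 10.81 at 4 h. Here 3 of 4 arrays were below every 0 h array, and the change was -0.95 (SE 0.35, adjusted p = 0.0765, and 0.0102 with the pairing as a block). At 24 h it read 10.85, 10.18, 11.96 and 10.23. KLF6 spread widely within most groups: the siNS arrays at 2 h ran from 10.55 to 12.09.

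KLF7, known for its part in the nervous system, was above background on 20 of 48 arrays. With siHic5_2 it was above background on 0 of 4 arrays at 0, 2 and 4 h and on 3 of 4 at 24 h. At 4 h it read 6.67, 6.23, 5.99 and 6.43 with siNS and 5.86, 5.62, 5.65 and 5.32 with siHic5_2, without overlap. Because the latter were below background, KLF7 was at least 1.06-fold lower (adjusted p = 0.00863), and without replicate number 4 in all groups the adjusted p was 0.136. From 4 to 24 h it rose in siHic5_2 cells (measured difference 0.68, SE 0.21, adjusted p = 0.0111), and without replicate number 2 or 4 in all groups the adjusted p was 0.0657 or 0.0746. Without the third 24 h array the measured rise was 0.63 (adjusted p = 0.0353). No bound on a rise could be given then, since the 24 h mean did not exceed the dimmest signal above background at 4 h. That late change differed from siNS by 0.997 (SE 0.30, adjusted p = 0.0516, and 0.0033 with the pairing as a block), and without that array by 0.95 (adjusted p = 0.0899). At 4 h 3 of 9 members passed against siNS, KLF7, KLF9 and KLF10, all lower, and at 24 h 1, KLF10, against 30.3 and 29.7% of all genes.

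The nonspecific siRNA was set against NI as a check of transfection. Averaged over the 4 times, 0 of 9 members and 0 of 11886 genes passed (limma), with 189 genes at an unadjusted p under 0.05. Same-numbered NI and siNS arrays deviated together (mean correlation 0.453). This fit did not use that pairing, which makes the comparison conservative. With the replicate number as a block across all groups 0 of 9 members and 0 of 11886 genes passed too. That block also spans the siHic5_2 arrays, which do not pair with the controls.

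The wider family gave fewer values. Of 8 other KLF genes listed, KLF3 and KLF12 were measured, and neither passed in any siNS response, knockdown or difference of responses. At 4 h KLF12 was -0.68 with siHic5_2 against siNS (SE 0.29, adjusted p = 0.0736). Of 9 genes of the SP family, which binds the same GC boxes, 6 were measured. With siHic5_2 against siNS 0, 3, 4 and 1 of the 6 were lower at 0, 2, 4 and 24 h and none was higher, where 25.9, 25.8, 30.3 and 29.7% of all genes were called. The median at 4 h was -0.63, against 0.03 over all genes. SP3, a close relative of SP1, was lower by 0.56 at 4 h (adjusted p = 0.0168) and by 0.56 at 24 h (adjusted p = 0.0154). SP8, SP4 and SP6 were lower at 4 h by 0.90, 0.69 and 0.74. SP6, which is among the 4 genes counted as lower at 4 h, was close to background. Its probe was above background on only 5 arrays of the series, so its 0.74 is a difference of measured values near background.

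Of 16 cofactors and modifiers of KLF proteins, 15 were measured, and at 4 h of dexamethasone 1 was higher and 3 lower with siHic5_2 against siNS, where 30.3% of all genes were called. The deacetylase HDAC2 was lower by 0.89 and the acetylase KAT2B by 1.17 (adjusted p = 4.92e-07 and 2.04e-06). The ubiquitin ligase subunit FBXW7, which targets KLF2 and KLF5 for degradation, rose by 1.505 in siNS cells at 24 h (adjusted p = 7.82e-10). Its 4 h response was lower with siHic5_2 by 1.17 (adjusted p = 0.0075).

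Of 13 amino acid and muscle wasting genes linked to KLF15 in muscle and liver, 7 were measured. With siNS 0, 0 and 4 of them rose at 2, 4 and 24 h, and with siHic5_2 0, 0 and 5, while none fell. Of all genes 4.83, 8.19 and 39.6% were called with siNS and 2.89, 11.1 and 34.8% with siHic5_2, in either direction. At 24 h with siNS ALDH6A1, of valine breakdown, rose by 1.67, AASS, of lysine breakdown, by 2.33 and the muscle ubiquitin ligase FBXO32 by 3.24 (adjusted p = 2.34e-12, 3.68e-12 and 1.21e-08). Their responses at 24 h did not pass for a difference between siHic5_2 and siNS in any of the 7.

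Of 16 reported targets of KLF2, KLF4, KLF5 and KLF6, 12 were measured. With siHic5_2 at 0 h 4 were higher and 1 lower than with siNS, where 25.9% of all genes were called. CDKN1A, the cell cycle inhibitor p21, was higher by 1.43 (SE 0.18, adjusted p = 1.38e-07), LAMA1 by 1.33 and ENG, a TGF-beta coreceptor, by 1.73. In siNS cells at 24 h 1 rose and 6 fell, where 39.6% of all genes were called. PLAU, the urokinase gene, fell by 3.83 on the log2 scale and CCND1, cyclin D1, fell by 0.95 (adjusted p = 1.69e-14 and 6.89e-10).

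The genes whose group means ran most like those of each member above background on at least 24 arrays are named by Pearson's r over the 12 group means, which share arrays with the member. For KLF9 they were SEC11C (0.972), LPIN1 (0.966) and RAPGEF2 (0.956). For KLF15 they were TGFBR3 (0.981), PRRG4 (0.977) and CACNA1I (0.977). SPATA2L ran closest both to KLF13 (0.989) and to KLF10 (0.952), followed by CMTM3 and CBL for KLF13 and TRIB1 and HILPDA for KLF10. KLF2 was nearest to FBXO45 (0.933), KLF5 to PLEKHO1 (0.953) and KLF6 to DTX2 (0.866). Among the members themselves, KLF5 and KLF15 ran most opposed, with r = -0.82.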

How the data were processed

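RNA of U2OS cells was measured on 48 one-colour bead arrays. The deposited raw table holds bead intensity values per probe, per the file headers, with a detection p-value per probe that the deposited table also gives. Those p-value columns stood under the wrong arrays: 0 of 48 matched the intensities beside them and 32 matched another array, so detection p was recomputed from 770 negative-control beads found in the table. The authors' processed table holds normalised log2 values, and the submitters' processing notes name R 2.15.3 and limma 3.14.4. No source used here names its normalisation method.

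Raw intensities were background-corrected with the negative controls (normexp), given an offset of 16, quantile-normalised and log2-transformed with neqc of limma 3.58.1 in R 4.3.3. Probes with a detection p under 0.01 on at least 4 arrays were kept, 20912 of 47323. Gene symbols came from the platform annotation, in which 30113 probes had 1 symbol, 8 several and 17202 none. The kept probe of highest mean stood for each of 11886 genes. One limma model with 12 group means (36 residual degrees of freedom) gave all contrasts, each adjusted by Benjamini-Hochberg over all genes, and it was tested on simulated data. Arrays limit the precision through their number, 4 a group.

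The members and gene lists were chosen with earlier results of these data known. Text names all members, up to 4 list genes of smallest adjusted p in a contrast, and 3 genes per member of highest r. Same-numbered arrays deviated together across times within each state (mean correlation of deviations 0.476 in NI, 0.438 in siNS and 0.306 in siHic5_2 cells, every pair over 0.1). They also did so between NI and siNS at the same time (0.453), but not between siHic5_2 and siNS (-0.02) or NI (0.06). The labels do not say what same-numbered arrays share. Where siHic5_2 is compared with a control, it cannot be told apart from the knockdown. The block within each state was chosen after seeing these correlations. Alternatives were the authors' values, other background corrections, scalings and filters, a probe-level fit, slide and replicate blocks, array weights, smaller fits, left-out arrays and NI as the control. Comparison of protein sequences was not made. Promoters were taken from RefSeq, GRCh38.p14.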

Additional observations from a re-analysis of the deposited data

Results flagged for a closer look

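In 8 of 108 sets of 4 arrays, 1 set for each member and group, 1 array stood far from the other 3, by a gap over the critical share of the group's range (Dixon's test). Chance gives about 1 in 20. The third siHic5_2 array at 24 h was high for KLF10, at 9.62 against 6.68 to 7.02, and for KLF15, at 9.66 against 8.93 to 9.05. The first NI array was high for KLF15 at 0 h, at 5.97 against 4.86 to 5.00 and below background on all 4, and at 24 h, at 10.51 against 9.53 to 9.64. KLF6 on the fourth siHic5_2 array at 4 h read 10.81 against 9.77 to 9.87. KLF13 was low on the fourth NI array at 24 h, at 10.18 against 10.45 to 10.50, and on the first siHic5_2 array at 0 h, at 10.52 against 10.91 to 10.97. KLF5 on the third NI array at 4 h read 5.396 against 5.70 to 5.73, all below background.

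Responses that differed between transfection states passed the test for KLF9 and KLF10. KLF9's 4 h response with siHic5_2 was lower than with siNS by a difference of -1.55 and than in NI cells by -1.44. For KLF10 the 24 h response differed from that of NI cells by 2.11, and the change from 4 to 24 h differed by 3.13 from siNS and by 3.53 from NI. The third siHic5_2 array at 24 h enters all 3 KLF10 values. Its part in them is seen in the values without it, 1.42, 2.43 and 2.83.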

How the results depend on the processing

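Numbers of members called (of 9) are given here for each contrast where an alternative moved them by more than 1.5 times; smaller moves, such as NI at 4 h from 3 to 2 with median scaling, no filter on dim probes or the probe-level fit, are not listed. Against siNS at 0 h, 2 members became 1 with median scaling, with the strict filter of 24 arrays, with array weights, with only the compared groups and with NI as control. At 2 h 2 became 1 with an offset of 50 and with median scaling. At 4 h 3 became 5 with the slide block and with the replicate block. At 24 h 1 became 2 without background correction, with an offset of 50, with the slide block and with the replicate block. Calls over all 11886 genes moved too. At 0 h 3078 became 1806 with median scaling and 2249 with only the compared groups. It became 3357 with array weights and 3243 with NI as control. The strict filter called 2952 of 10035. At 2 h 3069 became 3111 with an offset of 50 and 2088 with median scaling. At 4 h 3607 became 3552 with the slide block and 4345 with the replicate block. At 24 h 3529 became 3541 to 4122. For the difference of the 24 h responses, 0 members became 1 with the slide block, both replicate blocks and NI as control. Among responses, siNS at 2 and 4 h went from 2 to 1 with the slide block, NI at 2 h from 2 to 1 with only the compared groups, and siHic5_2 at 2 h from 2 to 4 with the pairing block within states. The block across all groups, whose numbers do not pair siHic5_2 with the controls, is given for completeness.

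With single arrays or replicate numbers left out, the counts ranged from 2 to 2, 1 to 2 and 4 to 6 in siNS cells at 2, 4 and 24 h, from 1 to 2, 1 to 3 and 3 to 5 in NI cells, and from 2 to 3, 3 to 5 and 2 to 4 with siHic5_2. Against siNS they ranged from 0 to 3, 0 to 2, 2 to 4 and 1 to 1 at 0, 2, 4 and 24 h, and for the differences of responses from 0 to 0, 0 to 1 and 0 to 1. Over all genes the counts in siNS cells ranged from 336 to 538, 662 to 899 and 3781 to 4448. In NI cells these were 198 to 413, 693 to 966 and 3715 to 4452, and with siHic5_2 180 to 322, 831 to 1411 and 3156 to 3886. Against siNS they were 1800 to 3128, 1724 to 3085, 1895 to 3885 and 2228 to 3326. For the differences of responses they were 6 to 18, 19 to 86 and 175 to 497. An equal count can hold different genes: without the third siHic5_2 array at 24 h, the 1 member called against siNS at 24 h was KLF15 (adjusted p = 0.0351) and no longer KLF10 (0.0837). No called member changed direction in any alternative run. Over single-member differences, 462 called values stayed called and 18 did not in the alternatives that kept all arrays, and 374 stayed called and 78 did not with arrays left out. Of values not called, 38 became called and 1455 did not in the alternatives that kept all arrays. With arrays left out 27 became called and 1789 did not. The causes of these changes were not tested. Dim probes limit KLF4, KLF5, KLF7 and KLF10, which were below background on many arrays.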
